A study of Mus musculus with 8 samples.

Results

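Narrow CpG islands are described here as 1 kb tiles of the mouse genome (build mm9) that are dense in CpGs but do not belong to a broad CpG-dense domain. A CpG counted when each of the 8 libraries gave it at least 10 reads. A tile on an autosome was a member when it held at least 21 such CpGs and did not lie in a stretch of 3 or more adjacent tiles with at least 11 CpGs apiece. This gave 7520 tiles of the 84021 autosomal tiles with a covered CpG. They held 281352 of 616929 covered autosomal CpGs, or 45.6%. Methylation levels played no part in the choice. The level of a tile is the share of methylated reads, in percent, summed over its CpGs.

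The libraries came from mouse embryonic stem cells of strain 129/SvP, all grown at low density in medium with FBS and LIF. Cells received vitamin C (500 μM) together with L-proline (1 mM), vitamin C alone, L-proline alone, or neither, each for 5 or 2 days. Reduced representation bisulfite sequencing (RRBS), which reads cytosine methylation in a CpG-rich fraction of the genome, gave 1 library for each treatment and day, so no group had a replicate. The combined treatment was taken from the sample names.

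CpG islands are short stretches rich in CpG dinucleotides that often span promoters, and in most cells they are kept free of methylation. The exceptions include imprinted regions, which carry methylation on the copy from 1 parent, and promoters of germline genes, which are silenced by methylation in somatic cells. Vitamin C is a cofactor of dioxygenases that include the Tet enzymes, which oxidise methylated cytosine, and L-proline is an amino acid known to push embryonic stem cells out of their naive state.

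Libraries listed from 762041 to 1006832 CpGs, and 622768 CpGs passed in all 8, with a median coverage of 27 to 56 reads in these. A member tile held 21 to 132 CpGs (median 33). Reads of a tile are coverage summed over its CpGs, so a read that spans several CpGs is counted at each of them. Summed this way, the reads of a member over the 8 libraries ranged from 3727 to 801903 (median 11942). No member had a sum under 328 in a library. By position, 4341 members had no CpG-dense neighbour and 3179 had 1. Intervals on shares of reads cover counting error only, since RRBS reads carry no molecular identifiers here. They also take these counts as independent, which counts from the same read are not, so they may be too narrow.

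The files give no gene names, so members were named by matching the spacing of their CpGs to the promoter sequences of RefSeq (GRCm38.p6), from 250 bases before to 50 after each start site. This named 3364 members (44.7%), covering 3705 genes. The same search against promoters of another chromosome named 0 members. A match also had to share its shift between builds with another tile. Before that rule, 310 members matched on the other chromosome and 3547 on their own. Promoters of another chromosome have no common shift, so the 0 does not give the rate of false names. A member without a match is not thereby shown to lack a promoter.

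Promoters at the floor are shown first because most members lay there, though those shown match members at an extreme of CpG number or of level. The sequences are from RefSeq, 5′ to 3′ on the strand of the gene, and capitals mark the CG dinucleotides covered in all 8 libraries. Mark1 (chr1:184999500-184999799, minus strand, GRCm38.p6), which encodes a microtubule affinity-regulating kinase, matched the member with the most CpGs. Skp2 (chr15:9140405-9140704, minus strand, GRCm38.p6), which encodes the substrate-binding subunit of a ubiquitin ligase that acts on cell-cycle inhibitors, matched 1 of the 3 members with the lowest pooled level.
Mark1: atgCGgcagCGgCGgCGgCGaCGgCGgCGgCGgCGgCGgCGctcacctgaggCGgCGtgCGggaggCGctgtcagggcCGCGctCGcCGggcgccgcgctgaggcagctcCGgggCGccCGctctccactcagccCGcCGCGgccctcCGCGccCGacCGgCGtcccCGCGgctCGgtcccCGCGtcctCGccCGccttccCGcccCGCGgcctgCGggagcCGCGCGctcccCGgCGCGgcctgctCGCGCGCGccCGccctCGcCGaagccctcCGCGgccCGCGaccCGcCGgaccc
Skp2: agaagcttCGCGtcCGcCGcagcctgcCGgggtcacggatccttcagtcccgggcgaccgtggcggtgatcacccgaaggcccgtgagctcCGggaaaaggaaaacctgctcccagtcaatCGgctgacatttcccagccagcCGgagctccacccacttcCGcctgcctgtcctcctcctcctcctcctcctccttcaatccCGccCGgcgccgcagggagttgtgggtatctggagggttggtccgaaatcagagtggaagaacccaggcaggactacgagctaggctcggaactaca
In Mark1, 61 of 64 CGs were covered, and no CpG exceeded 6.7% in L-proline day 5 or 3.6% in vitamin C day 5. In Skp2, 11 of 23 CGs were covered, and the highest CpG stood at 3.3% in L-proline day 5 and at 0 in vitamin C day 5.

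The promoters of 4 genes are shown next because the results below turn on the tiles they match, which lay above the floor. Plagl1 (chr10:13090582-13090881, plus strand, GRCm38.p6) encodes a zinc finger transcription factor and is imprinted, with a methylated maternal copy. Mcts2 (chr2:152686898-152687197, plus strand, GRCm38.p6) is an imprinted retrogene. Ddx4 (chr13:112652261-112652560, minus strand, GRCm38.p6) encodes an RNA helicase of germ cells, and Hoxa6 (chr6:52208623-52208922, minus strand, GRCm38.p6) a homeobox factor that patterns the body axis.
Plagl1: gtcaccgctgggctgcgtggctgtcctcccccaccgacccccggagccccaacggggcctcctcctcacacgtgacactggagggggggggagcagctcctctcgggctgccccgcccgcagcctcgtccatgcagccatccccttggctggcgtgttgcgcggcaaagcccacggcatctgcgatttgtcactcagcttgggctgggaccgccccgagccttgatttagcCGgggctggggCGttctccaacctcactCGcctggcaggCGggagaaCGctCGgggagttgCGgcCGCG
Mcts2: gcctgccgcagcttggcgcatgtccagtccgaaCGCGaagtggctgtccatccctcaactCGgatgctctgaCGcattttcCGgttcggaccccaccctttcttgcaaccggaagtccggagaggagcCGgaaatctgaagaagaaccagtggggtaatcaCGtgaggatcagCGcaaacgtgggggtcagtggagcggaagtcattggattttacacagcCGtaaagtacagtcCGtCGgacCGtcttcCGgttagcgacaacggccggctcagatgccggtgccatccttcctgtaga
Ddx4: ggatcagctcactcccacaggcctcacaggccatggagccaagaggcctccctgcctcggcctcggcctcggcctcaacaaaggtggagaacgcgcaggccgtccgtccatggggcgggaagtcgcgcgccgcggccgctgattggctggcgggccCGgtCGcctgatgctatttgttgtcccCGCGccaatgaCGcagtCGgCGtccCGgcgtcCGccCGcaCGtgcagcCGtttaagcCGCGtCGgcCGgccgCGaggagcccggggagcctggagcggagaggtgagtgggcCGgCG
Hoxa6: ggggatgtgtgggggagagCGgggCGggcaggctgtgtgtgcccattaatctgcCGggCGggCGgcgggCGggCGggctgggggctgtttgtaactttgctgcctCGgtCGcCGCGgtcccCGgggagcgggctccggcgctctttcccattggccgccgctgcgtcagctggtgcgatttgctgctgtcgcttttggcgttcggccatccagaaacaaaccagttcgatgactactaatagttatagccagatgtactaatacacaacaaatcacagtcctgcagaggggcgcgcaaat
The covered CGs were 9 of 26 in Plagl1, 13 of 25 in Mcts2, 19 of 38 in Ddx4 and 12 of 26 in Hoxa6. Over the covered CGs of the Plagl1 promoter, the median CpG at day 5 and day 2 stood at 45.8% and 41.8% with both supplements, 33.3% and 24.1% with vitamin C, 48.3% and 42.4% with L-proline, and 31.4% and 56.9% untreated. For Mcts2 it was 20% and 17.4% with both supplements, 11.4% and 20.8% with vitamin C, 13.5% and 10.5% with L-proline, and 19.4% and 17.4% untreated. In both imprinted genes the libraries with and without vitamin C overlapped. For Ddx4 it was 5.3% and 0% with both supplements, 2.2% and 2.2% with vitamin C, 15.2% and 8.2% with L-proline, and 10.5% and 8.7% untreated, with no overlap. For Hoxa6 it was 0% and 1.5% with both supplements, 0% and 0% with vitamin C, 6.05% and 3.1% with L-proline, and 0% and 3.75% untreated. The Hoxa6 window itself was thus low, with no CpG above 15.4% in L-proline day 5, while the whole tile stood at 21.3% there.

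Sequence features of the matched promoters are given as a description, and their relation to CpG density was not tested. They held a median of 31 CG dinucleotides in 300 bases and were 69.3% G and C, against 7 and 53% over all 25748 promoters. A match needed at least 6 covered CpGs in a tile of at least 21, so the rule itself favoured promoters rich in CG and motifs that hold CG. On either strand, GGGCGG (the GC box of SP and KLF factors) occurred in 83.4% of matched promoters and in 36.3% of all, and CCGGAAG (an ETS core) in 21.4% and 9.29%. TGACGTCA (the cAMP response element) occurred in 3.16% and 1.92%, and CACGTG (the E-box) in 10.7% and 7.23%. TATAAA was the exception, at 3.32% of matched promoters and 14.2% of all. Of the matched members, 461 (13.7%) matched promoters on both strands.

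The median member lay under 1% in all libraries. The median member stood at 0.546% in both-supplements day 5 and at 0.532% in both-supplements day 2. With vitamin C alone it was 0.526% at day 5 and 0.525% at day 2. With L-proline alone it was 0.706% at day 5 and 0.572% at day 2, and in untreated cells 0.603% at day 5 and 0.516% at day 2. The medians thus spanned 0.516% to 0.706%, with L-proline day 5 the highest. Over all 50167 tiles with at least 3 CpGs the corresponding medians spanned 10.2% (vitamin C day 5) to 48.8% (L-proline day 5). Members under 1% made up 88.2% of members in vitamin C day 5, the highest share, and 65.8% in L-proline day 5, the lowest.

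**Figure D1:**
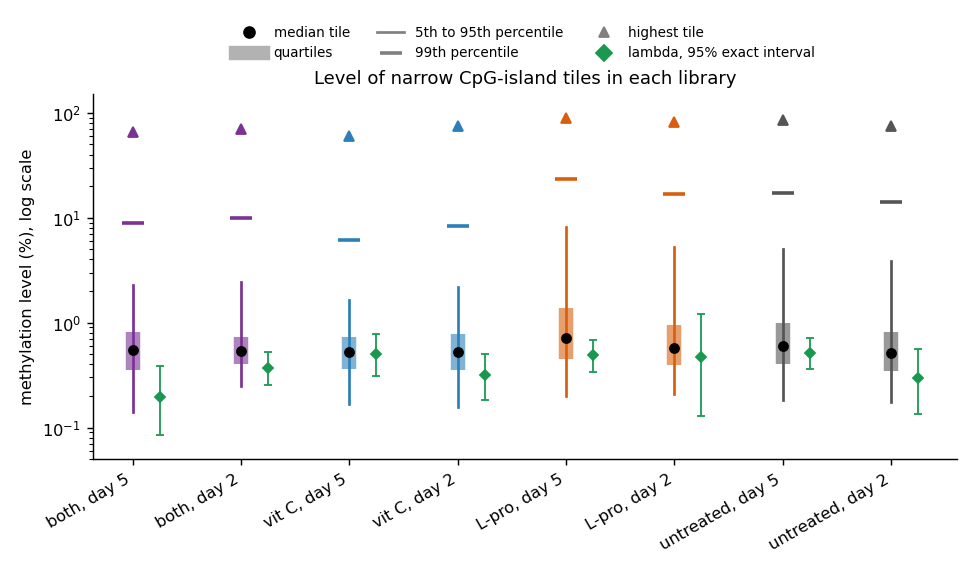
Level of the 7520 narrow CpG-island tiles in each library on a log axis in percent: median, quartiles, 5th to 95th percentile, 99th percentile and highest tile, with the level of lambda DNA (95% exact interval). Medians lie between 0.516% and 0.706%, while the 95th percentile ranges from 1.63% in vitamin C day 5 to 8.11% in L-proline day 5.

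The floor was set beside the lambda DNA in the files. The files list CpGs of phage lambda, DNA commonly added unmethylated to gauge incomplete conversion, though its state here is not given in the sources used. Lambda reads were also summed over CpGs, and their intervals take the counts as independent. Those called methylated made up 0.195% (95% exact interval 0.0844% to 0.385%) in both-supplements day 5, the lowest. The highest was 0.513% (0.358% to 0.713%) in untreated day 5. Members below their own library's lambda level numbered 46.5% in vitamin C day 5 and 8.54% in both-supplements day 5. The median of each library lay above its lambda value, by 0.0216 to 0.351 points, and in 4 of 8 libraries it lay inside the lambda interval. The share of member CpGs with 0 methylated reads was 84.6% in both-supplements day 5, the highest, and 70.2% in both-supplements day 2, the deepest library.

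Members under 1% in all 8 libraries numbered 4066 (54.1%), and 6886 (91.6%) stayed under 5% in all 8. Members with no methylated read numbered 135 in both-supplements day 5 and 4 in both-supplements day 2, and 0 had none in all 8. Among the members with the lowest pooled level, chr15:9070001-9071000 (Skp2 and Lmbrd2, 26 CpGs) had 0.314% and 0.134% with both supplements, 0.137% and 0.5005% with vitamin C, 0.597% and 0.114% with L-proline, and 0.109% and 0% untreated, each at day 5 and day 2. At chr17:69766001-69767000 (22 CpGs) the libraries spanned 0% to 0.337%, and at chr18:11816001-11817000 (22 CpGs) 0% to 0.538%. The member richest in CpGs, chr1:186823001-186824000 (Mark1 and Gm39728, 132 CpGs), spanned 0.429% to 0.723%, and the next, chr18:76401001-76402000 (124 CpGs), 0.301% to 0.607%. In each of these 5, libraries with and without vitamin C overlapped.

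The upper tail spanned a wider range over the libraries than the median, with a 95th percentile of 1.63% in vitamin C day 5 and 8.11% in L-proline day 5. The mean over members was 0.960% and 0.983% with both supplements (day 5 and day 2), 0.805% and 0.910% with vitamin C, 2.03% and 1.45% with L-proline, and 1.46% and 1.18% untreated. The 4 libraries without vitamin C all lay above the 4 with it. Members at 5% or above held 49.9% of all methylated member reads in L-proline day 5 and 20.9% in vitamin C day 5, while holding 6.42% and 0.985% of member reads.

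Members at 20% or above, called outliers here, numbered 35 and 36 with both supplements (day 5 and day 2), 24 and 29 with vitamin C, 99 and 57 with L-proline, and 58 and 39 untreated. All 4 counts without vitamin C exceeded all 4 with it. At 50% or above the counts were 6 and 3 with both supplements, 2 and 3 with vitamin C, 22 and 11 with L-proline, and 10 and 6 untreated. Between 5% and 20% they ranged from 75 in vitamin C day 5 to 518 in L-proline day 5.

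**Figure D2:**
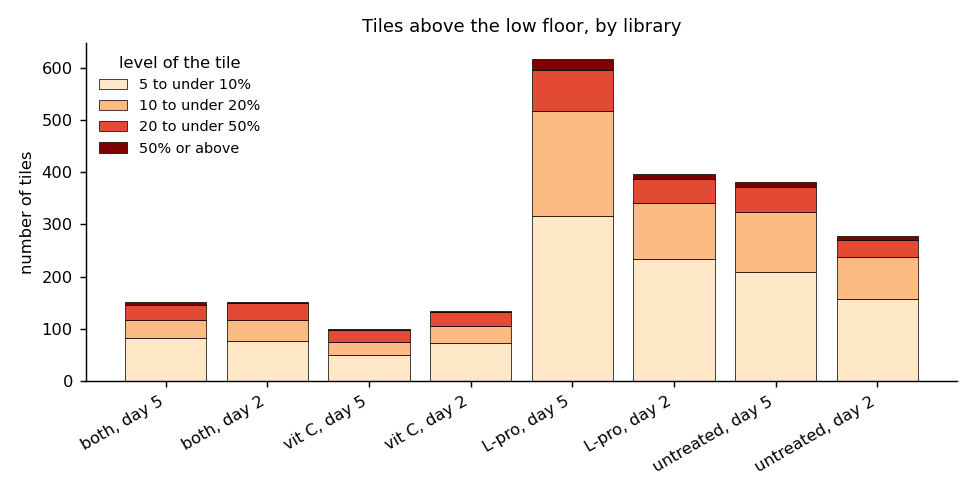
Number of narrow CpG-island tiles in each library at 5 to under 10%, 10 to under 20%, 20 to under 50%, and 50% or above, stacked. L-proline day 5 has the tallest bar, with 99 tiles at 20% or above, and vitamin C day 5 the shortest, with 24.

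The outliers of different libraries were largely the same tiles. In all, 102 members (1.36%) reached 20% in at least 1 library, and 19 did so in all 8. Another 36 did so in exactly 1 library, which was L-proline day 5 each time. Of the outliers of any other library, between 91.7% (vitamin C day 5) and 98.3% (untreated day 5) were also outliers in L-proline day 5, and these made up 22 (vitamin C day 5) to 57 (untreated day 5) of its 99. L-proline day 5 was the sole library to lie 10 points or more above the next highest, in 35 members.

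**Figure D3:**
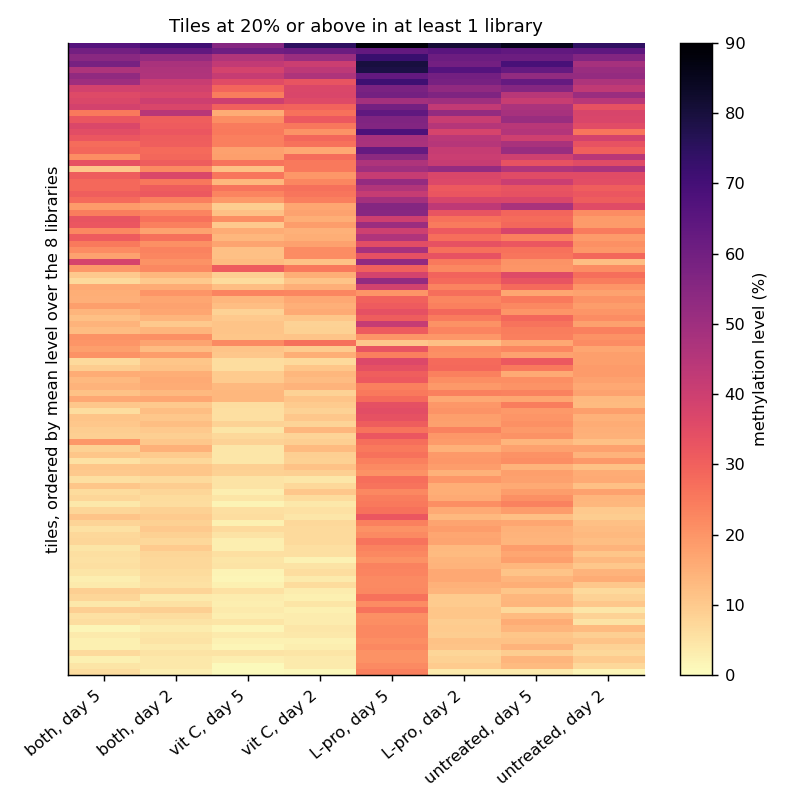
Methylation level in percent of the 102 tiles at 20% or above in at least 1 library, 1 row for each tile and 1 column for each library, ordered by mean level. The L-proline day 5 column is the darkest over most rows, and 19 tiles at 20% or above in all 8 libraries lie towards the top.

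The highest member by mean, chr4:43997001-43998000 (25 CpGs), had 66.2% and 70.9% with both supplements (day 5 and day 2), 55.3% and 74.8% with vitamin C, 88.3% and 81.1% with L-proline, and 85.1% and 74.4% untreated. Of its 25 CpGs, 24 stood at 50% or above in L-proline day 5. Its libraries with vitamin C overlapped those without. At chr7:89920001-89921000 (21 CpGs) the level was 59.5% and 63.4% with both supplements, 60.8% and 61.5% with vitamin C, 63.2% and 65.3% with L-proline, and 63.4% and 64.1% untreated, at day 5 and day 2. It was nearly constant, and with 6506 to 15615 reads in a library it was also among the 5 deepest members. The other 3 highest members had their top in L-proline day 5 and their lowest value with vitamin C alone: chr7:53049001-53050000 spanned 46.0% to 72.2%, chr2:165206001-165207000 spanned 40.2% to 79.6%, and chr19:9828001-9829000 spanned 38.0% to 78.6%. The outliers had a median of 8630 reads over the 8 libraries, against 12227 for members under 5% in all libraries. These sums rise with the number of CpGs, whose medians were 25 and 34, so they do not compare depth for each CpG. Members holding a CpG with over 500 reads numbered 7, of which 2 were outliers.

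Within the outliers, methylated and unmethylated CpGs mostly sat side by side. In L-proline day 5, 73 of the 102 held both CpGs at 50% or above and CpGs under 10%. A further 23 held no CpG under 10%, and 6 held none at 50% or above. Averaged over the libraries, 22 tiles switched at most once along their length between CpGs at 20% or above and CpGs below, and the median number of switches was 4. Outliers held a median of 25 CpGs, against 34 for members under 5% in all libraries, and 80 of the 102 had no dense neighbour. Sparser tiles nearby were also methylated. Of the 102 outliers, 37 had a measured neighbouring tile of 3 to 10 CpGs, and neighbours with more CpGs were not counted. The median such neighbour stood at 56.3% in L-proline day 5 and 14.7% in vitamin C day 5. Beside members under 5% in all libraries it stood at 1.80% and 0.737%.

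Members with more CpGs had lower means and fewer outliers. In L-proline day 5, members with 21 to 25 CpGs (1816 tiles) averaged 3.16% and those with 41 or more (2397 tiles) 1.15%, and 2.92% and 0.21% of them were outliers. In vitamin C day 5 the same classes averaged 1.11% and 0.598%. At the edge of the rule, members with 21 or 22 CpGs (764 tiles) averaged 3.43% in L-proline day 5 and 1.17% in vitamin C day 5. Tiles with 19 or 20 CpGs outside broad domains (908 tiles) averaged 5.20% and 2.18%. Tiles with 21 or more CpGs that fell out because they lay in a stretch of exactly 3 dense tiles (523 tiles) averaged 1.90% and 0.711%.

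Methylation was also graded inside the members. The 5 outermost CpGs at each end averaged 2.877% in L-proline day 5, against 1.72% for the CpGs between them. In vitamin C day 5 these were 0.962% and 0.752%. The outer value was the larger in every library. Around start sites of matched genes, CpGs 1 to 100 bases upstream averaged 0.778% in L-proline day 5, and those in the outermost bins, at −700 to −601 and 600 to 699 bases, 2.33% and 2.96%. In vitamin C day 5 the same 3 positions averaged 0.525%, 0.786% and 1.07%. The bin just upstream of the start was the lowest in 7 of 8 libraries, and in vitamin C day 5 the bin from −600 to −501 bases was lower, at 0.511%. Each bin held 1211 to 23636 CpGs.

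**Figure D4:**
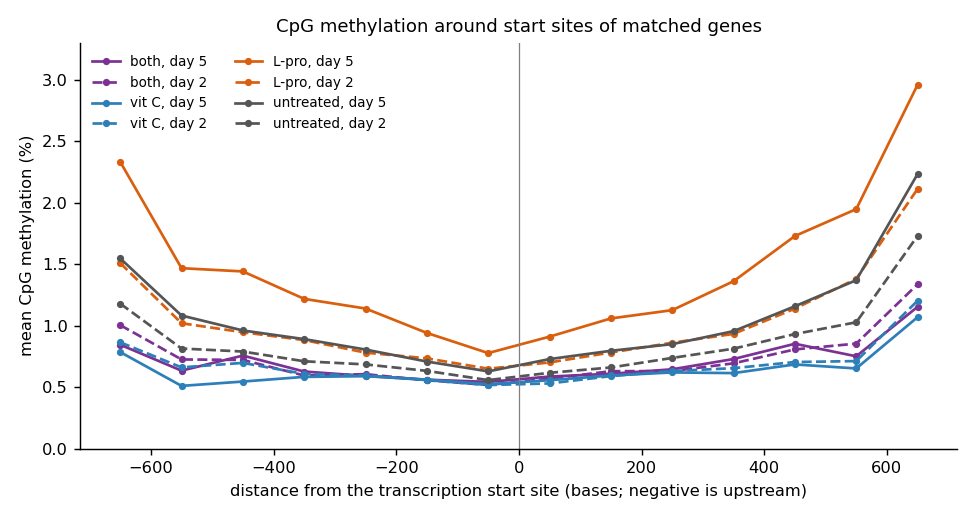
Mean CpG methylation in percent in bins of 100 bases by distance from the transcription start site of genes matched to members, 1 line for each library (solid for day 5, dashed for day 2). All lines are low near the start, and L-proline day 5 is the highest at both ends, at 2.33% upstream and 2.96% downstream.

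Members with a matched promoter sat lower than those without. The match rule favoured promoters rich in CG, and members with more CpGs had lower means, as given above. CpG number was not held equal in this comparison, and members on chromosome 18 could not match. In L-proline day 5 their median was 0.628% and their mean 1.23%, against 0.808% and 2.68%. In vitamin C day 5 the values were 0.510% and 0.610%, against 0.543% and 0.963%. Of members under 5% in all libraries, 46.8% had a matched promoter, of the 634 members at 5% or above in some library 21.9%, and of the 102 outliers 10.8% (11 tiles). These 11 were the tiles of Plagl1, Rgcc, Esrrg, Mcts2, Dmrtb1, Gpi1, Ppp1r2, Fam229a, Cyp2r1, Hoxa6 and Amdhd1, which are named as the complete set. Plagl1 (chr10:12810001-12811000, shared with the transcript Hymai) was the sole named tile among the 19 that were outliers in all libraries.

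Vitamin C went with lower levels above the floor. At the floor the difference in points was small, but a tile there cannot lose more points than it has. With minus without vitamin C at the same L-proline and day, the member mean differed by −0.617 ± 0.342 points (SD, n = 4 matched pairs), and all 4 pairs were negative: −1.07 and −0.470 with L-proline (day 5 and day 2), −0.656 and −0.271 without it. The smallest p a 2-sided exact sign-flip test can give with 4 pairs is 0.125, and none is given for a mean over members. The median member differed by −0.101 points. Over all 50167 tiles the mean difference was −7.62 ± 3.34 points (SD, n = 4). Members had lower levels than all tiles, so these points do not compare relative change. Tiles with 21 or more CpGs inside broad domains (640 tiles) came to −0.675 ± 0.352 points (SD, n = 4), close to the members.

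Single tiles were tested with limma's moderated test on log2((methylated + 1)/(unmethylated + 1)), in a fit over all 50167 tiles whose terms (day, L-proline, vitamin C) were added without interaction. A call needed an adjusted p under 0.05 and a mean difference of at least 10 points. By this rule 52 members were lower with vitamin C, or 0.691% of them, where the background over all tiles was 23.2%, and 0 were higher (background 0%). All 52 were lower in 4 of 4 pairs, by −31.4 to −10.002 points (median −13.1), and their medians were 8.56% with and 21.7% without vitamin C. Since the rule asks for 10 points, floor members could not be called. Of 178 members averaging 10% or more without vitamin C, the 52 were called, beside 11642 of 29125 such tiles in all. Without a minimum difference, 917 members were lower at that adjusted p (background 34.3%) and 11 higher (background 0.171%). At an unadjusted p under 0.05, 1379 were lower (background 47.7%) and 68 higher (background 0.588%). Members lower in all 4 pairs numbered 1814 (background 49.1%) and members higher in all 4 numbered 308 (background 1.25%).

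The count of 52 rested on several choices. Without 1 day 5 library it was 14 (both supplements left out), 20 (L-proline), 21 (vitamin C) or 19 (untreated), where the same settings called 5.30%, 9.38%, 7.46% and 6.17% of all tiles. With a quasi-binomial model it was 8, beside 1.18% of all tiles. The vitamin C effect had a median of −0.24 (log2) over members and −0.93 over all tiles. Centring every library to the same median over all tiles shifts all its tiles by the same amount, which by construction turns members with an effect near 0 to the higher side. After it 2 members were called, beside 0.409% of all tiles. At the adjusted p alone 2585 members were higher and 5 lower, while 6729 of all 50167 tiles passed in either direction. These counts describe members relative to the median tile.

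Among members lower in all 4 pairs, the largest vitamin C loss was at chr17:35562001-35563000 (21 CpGs). It had 10.4% and 22.1% with both supplements (day 5 and day 2), and 11.7% and 25.3% with vitamin C. With L-proline it had 49.7% and 52.2%, and untreated 45.7% and 47.4%. The difference was −31.4 ± 7.22 points (SD, n = 4), log2 −2.27 with a standard error of 0.39 and a limma adjusted p of 0.0106. No library with vitamin C overlapped one without. At chr2:180394001-180395000 (23 CpGs) the values were 18.9% and 17.3% with both supplements, 9.44% and 16.6% with vitamin C, 55.8% and 43.1% with L-proline, and 47.5% and 35.2% untreated, at day 5 and day 2, a difference of −29.8 ± 9.30 points (SD, n = 4; limma adjusted p = 0.0106). At chr2:74513001-74514000 (29 CpGs) they were 6.93% and 10.2% with both supplements, 6.54% and 10.9% with vitamin C, 52.7% and 28.0% with L-proline, and 32.7% and 24.6% untreated, a difference of −25.9 ± 14.3 points (SD, n = 4; limma adjusted p = 0.0107). Both also separated without overlap, and in both L-proline day 5 was the highest library.

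The next losses were smaller or less clear. At chr2:168719001-168720000 (25 CpGs) the libraries with vitamin C spanned 16.4% to 28.6% and those without 30.2% to 62.6%, with no overlap. At chr10:79198001-79199000 (22 CpGs) they spanned 15.8% to 44.5% with and 37.6% to 63.8% without vitamin C, which overlapped. Both fell by the rule above, with limma adjusted p-values of 0.0167 and 0.0285.

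Of the 52 called members, 7 had a matched promoter. Cyp2r1, which encodes a vitamin D 25-hydroxylase, had 3.11% and 5.91% with both supplements (day 5 and day 2), 1.72% and 3.65% with vitamin C, 22.1% and 16.4% with L-proline, and 13.9% and 15.8% untreated, a difference of −13.4 ± 3.805 points (SD, n = 4; limma adjusted p = 0.0106). Hoxa6, whose promoter is printed above, had 2.53% and 4.97% with both supplements, 2.25% and 2.28% with vitamin C, 21.3% and 11.4% with L-proline, and 11.4% and 10.9% untreated, a difference of −10.8 ± 5.48 points (SD, n = 4; limma adjusted p = 0.0106). In both genes every library with vitamin C lay below every library without. The other 5 named tiles were those of Esrrg (an orphan nuclear receptor, −12.8 points), Fam229a (−11.1), Olfml2b (an olfactomedin-like protein, −11.0), Syt15 (a synaptotagmin, −10.7) and Dmrtb1 (a DM-domain factor of male germ cells, −10.6), with limma adjusted p-values from 0.0106 to 0.0457. Of the 19 members that were outliers in all libraries, 4 were called (background 23.2%).

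Higher members with vitamin C were rare and small. The 11 higher at the adjusted p lay between 0% and 1.86% in every library, and differed by 0.335 to 0.752 points. Of the 4 largest gains at the floor among members higher in all 4 pairs, Brwd1 (chr16:96304001-96305000), which encodes a bromodomain protein, had 0.546% and 0.454% with both supplements (day 5 and day 2), 1.86% and 0.677% with vitamin C, 0.353% and 0% with L-proline, and 0.447% and 0.185% untreated. Its difference was 0.637 ± 0.532 points (SD, n = 4; limma adjusted p = 0.018). The tiles at chr3:107434001-107435000 and chr5:147196001-147197000 differed by 0.752 and 0.567 points, and passed at limma adjusted p-values of 0.0156 and 0.0143. The tile at chr5:148242001-148243000 differed by 0.882 points and did not pass (limma adjusted p = 0.0505). With 20 reads asked of each CpG, its difference came to −0.117 points.

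Among members moving the same way in all 4 pairs, Mcts2 had the largest mean gain with vitamin C and the largest mean loss with L-proline. Neither passed for Mcts2. Its tile (chr2:152512001-152513000, 21 CpGs) had 19.9% and 17.2% with both supplements (day 5 and day 2), 21.9% and 27.0% with vitamin C, 10.4% and 11.9% with L-proline, and 16.5% and 21.6% untreated. Values with and without vitamin C overlapped. The vitamin C difference was 6.39 ± 2.02 points (SD, n = 4; limma adjusted p = 0.166) and the L-proline difference −6.93 ± 3.72 points (SD, n = 4; limma adjusted p = 0.35). Plagl1 had 36.7% and 39.98% with both supplements, 39.8% and 35.7% with vitamin C, 48.7% and 49.6% with L-proline, and 40.996% and 44.1% untreated, at day 5 and day 2. Its libraries with vitamin C lay just below those without, and the difference of −7.82 points did not pass (limma adjusted p = 0.311).

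**Figure D5:**
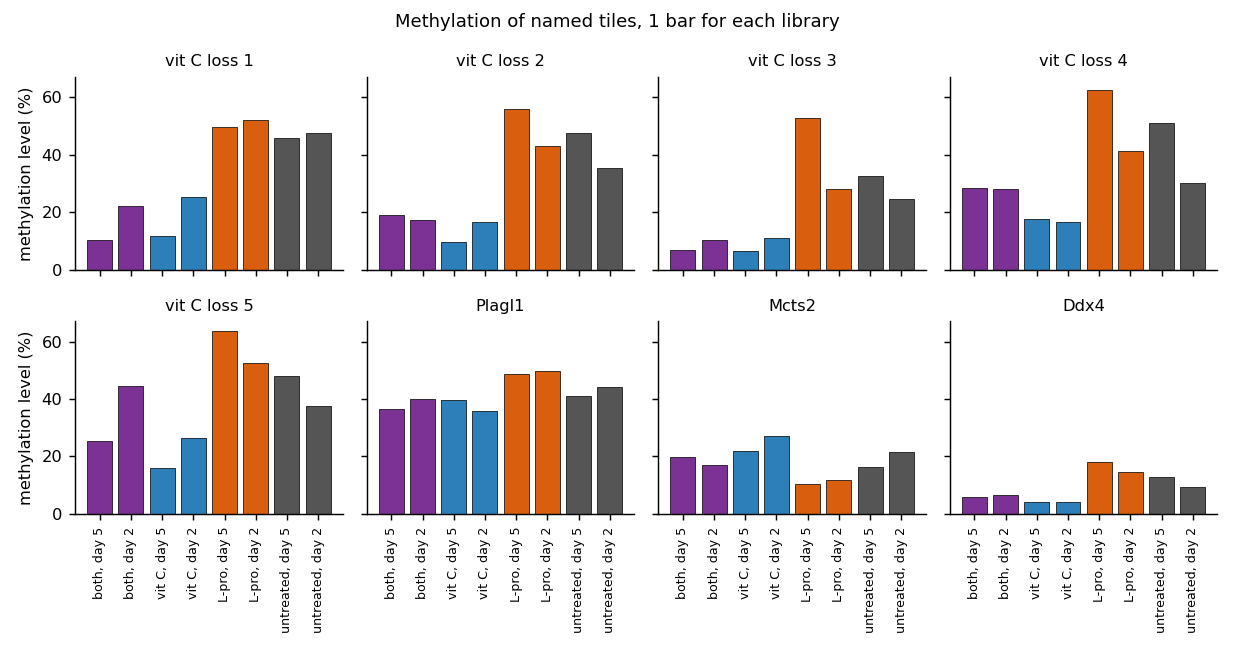
Methylation level in percent, 1 bar for each library, of the 5 tiles with the largest vitamin C loss and of the tiles of Plagl1, Mcts2 and Ddx4. The largest loss stands at 10.4% to 25.3% with vitamin C and 45.7% to 52.2% without, while Plagl1 stays between 35.7% and 49.6%.

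Listed gene groups were mostly at the floor, where they were found among the matched promoters. Of 22 imprinted genes, 17 were among the promoters searched and 5 matched a member. Plagl1 and Mcts2 lay above the floor, and Gnas (0.360% to 0.915% over the libraries), Grb10 (0.155% to 1.43%) and Igf2r (0.480% to 2.03%) at it. These values describe the tile of the matched promoter only, and imprinted methylation elsewhere in a locus was not assessed. The member before that of Grb10, at chr11:11926001-11927000 with no matched promoter, averaged 32.8% over the libraries. Of 15 germline genes, Ddx4 alone matched. Its tile had 5.73% and 6.45% with both supplements (day 5 and day 2), 4.28% and 4.03% with vitamin C, 17.97% and 14.7% with L-proline, and 12.8% and 9.5002% untreated. All libraries with vitamin C lay below all without, by −8.63 points on average, which passed the adjusted p (limma, 0.0141) but not the minimum of 10 points.

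Of 13 genes of the methylation machinery, 10 were among the promoters searched and 5 matched. These were Dnmt1 and Uhrf1 (maintenance of methylation), Dnmt3b (de novo methylation), and Tet2 and Tet3 (oxidation of methylated cytosine). They lay between 0.0937% and 1.56% in every library. Tet3 was lower with vitamin C by −0.612 points (limma adjusted p = 0.0443), and the other 4 did not pass. Of 14 pluripotency genes, 10 were among the promoters searched and 2 matched. Tfcp2l1 (0.334% to 1.36%) and Fgf4 (0.229% to 1.02%) stayed at the floor, with 0 of 2 past the test. Of 15 housekeeping genes, 11 were among the promoters searched. Polr2a alone matched (0.124% to 0.896%), and it did not pass. Hox genes, grouped by symbol after the values were seen, matched 5 members, of which Hoxa5, Hoxa6 and Hoxa11 were lower with vitamin C at the adjusted p (background 34.3%) and Hoxd10 and Hoxa13 did not pass. Only Hoxa6 met the minimum of 10 points as well.

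L-proline went with slightly higher levels, and no member was called. With minus without L-proline, the member mean differed by 0.268 ± 0.219 points (SD, n = 4 matched pairs), from 0.155 and 0.0728 with vitamin C (day 5 and day 2) to 0.572 and 0.272 without it, against 3.79 ± 0.966 points (SD, n = 4) over all tiles. By the limma rule 0 members were higher (background 0%) and 0 lower (background 0%), with a smallest adjusted p of 0.227. At an unadjusted p under 0.05, 321 members were higher (background 15.2%) and 92 lower (background 0.767%). A quasi-binomial model called 0 members (background 0.0379%) and put 1 past its adjusted p, beside 272 of all tiles. Members higher in all 4 pairs numbered 1143 (background 28.1%) and members lower in all 4 numbered 295 (background 1.61%). Centring each library by construction turns members near 0 to the lower side. Relative to the median tile, that is after this centring, 1838 members were lower and 9 higher at the unadjusted p. The share over all tiles was not computed there.

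The largest L-proline difference among members higher in all 4 pairs was at chr10:80607001-80608000 (30 CpGs). It had 37.7% and 20.5% with both supplements (day 5 and day 2), 52.8% and 25.3% with L-proline, 12.8% and 11.6% with vitamin C, and 20.1% and 12.01% untreated, a difference of 19.96 ± 10.8 points (SD, n = 4; limma adjusted p = 0.23). The libraries with L-proline lay above those without. At chr4:128901001-128902000 the libraries with L-proline spanned 26.9% to 46.2% and those without 13.7% to 23.8%, which also did not overlap (14.9 ± 6.21 points, SD, n = 4; limma adjusted p = 0.24). The other 3, at chr10:79198001-79199000, chr7:52632001-52633000 and chr2:167924001-167925000, differed by 14.6, 14.0 and 13.9 points, and the groups overlapped in each.

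Differences the other way were small. Beside Mcts2, the tile shared by Mbtd1 (a subunit of a histone acetyltransferase complex) and Utp18 (a ribosome assembly factor) at chr11:93747001-93748000 had 2.38% and 1.79% with both supplements, 3.24% and 2.24% with L-proline, 6.39% and 6.18% with vitamin C, and 6.76% and 3.34% untreated, at day 5 and day 2. Every library with L-proline lay below every library without, by −3.26 ± 1.48 points (SD, n = 4; limma adjusted p = 0.24). The remaining 3 of the rule, at chr8:28232001-28233000, chr16:94347001-94348000 and chr15:43002001-43003000, differed by −2.07, −0.824 and −0.700 points and did not pass.

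Day 5 and day 2 differed in opposite directions with and without vitamin C. Day 5 minus day 2, the member mean differed by −0.0228 points with both supplements and −0.105 with vitamin C, and by 0.580 with L-proline and 0.280 untreated, or 0.183 ± 0.312 on average (SD, n = 4 treatments). Without the L-proline day 5 library the average was 0.0507 points. Over all tiles it was 1.76 ± 3.24 points (SD, n = 4), and each treatment had the same sign there as in members. By the limma rule 0 members were higher (background 0%) and 0 lower (background 0%), the smallest adjusted p being 0.590. At an unadjusted p under 0.05, 263 were higher (background 6.56%) and 71 lower (background 0.973%). A quasi-binomial model put 4 members past its adjusted p, beside 256 of all tiles. Relative to the median tile, by the same centring, 43 members were higher and 335 lower at the unadjusted p, and the share over all tiles was not computed. Members higher at day 5 in all 4 treatments numbered 757 (background 11.2%) and members lower in all 4 numbered 259 (background 2.55%).

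A vitamin C by day term, added to the limma fit after the values were seen, passed in 0 members, with a smallest adjusted p of 0.386. At an unadjusted p under 0.05 it was negative in 342 members and positive in 90. Together these made up 5.74% of members and 12.3% of all tiles.

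Among members higher at day 5 in all 4 treatments, chr7:52632001-52633000 (35 CpGs) had the largest difference. Its day 5 and day 2 values were 34.7% and 32.3% with both supplements, 25.1% and 20.2% with vitamin C, 67.9% and 37.7% with L-proline, and 45.4% and 26.01% untreated, a difference of 14.2 ± 13.0 points (SD, n = 4). L-proline day 5 lay 22.6 points above the next library there, the widest such gap of any member and library. The next in the day comparison, chr2:165206001-165207000 and chr10:80607001-80608000, differed by 13.5 points each. The reverse was seen at chr17:35562001-35563000 (−7.36 points), chr19:8967001-8968000 (−4.86) and chr8:28232001-28233000 (−2.72).

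Tiles in which 1 library stood furthest above the rest showed how seldom any other library stood out. After L-proline day 5, whose next gap was 22.01 points at chr4:131456001-131457000 (54.9%), the widest gap was 5.13 points in vitamin C day 2 at Mcts2. In L-proline day 2 it was 4.003 points at chr6:81915001-81916000 (27.1%), in untreated day 5 3.33 points at chr16:21204001-21205000 (Ephb3, an ephrin receptor, 15.3%), and in untreated day 2 2.87 points at chr8:28232001-28233000 (9.34%). In both-supplements day 5 and day 2 it was 1.40 points at chr9:66891001-66892000 (2.11%) and 0.924 points at chr3:40650001-40651000 (Mfsd8, a lysosomal membrane protein, 1.497%), and in vitamin C day 5 1.18 points at Brwd1.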

How the data were processed

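The authors deposited 1 CpG list for each of 8 RRBS libraries, with the coverage and the methylated fraction of each CpG of at least 10 reads. Per the submitters' processing notes, CASAVA, BSMAP 2.88 and build mm9 were used, with no role stated. Coverage was an exact whole number for 99.3% to 99.6% of CpGs. The handling of strands and duplicates is not stated there either. Incomplete conversion would add to the low levels reported.

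Tile levels are fractions weighted by coverage, given in percent. Rounded methylated and unmethylated counts, with 1 added to each, entered limma 3.58.1 (R 4.3.3) over 50167 tiles with at least 3 CpGs on the autosomes, X and Y, with vitamin C, L-proline and day as additive terms, 4 residual degrees of freedom and Benjamini-Hochberg adjustment over all tiles. Single libraries per group mean that p-values measure scatter around that additive fit. The scripts were tested on simulated data. Python 3.11.15, numpy 2.4.6, pandas 2.3.3 and scipy 1.17.1 were used.

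A promoter was matched when every covered CpG in its window fell on a CG of the RefSeq sequence, at least 6 of them in the tile, with a shift between builds within 100 bases of that of another tile matched on at least 8. No coordinate was converted, and promoters of chromosome 18 were not used here. Members named in the text are the 5 highest by mean, the 5 largest losses and gains with vitamin C and L-proline and the 3 with day among members that moved the same way in all 4 pairs, those in which 1 library stood furthest above the rest (and its second where the gap was 10 points), the 3 lowest and the 2 with the most CpGs; genes on the lists, outliers and called members with a promoter are named besides. The members and lists were chosen with earlier results of these data known. Alternatives tried were the pseudocount, read minimum, CpG minimum, tile offset, centring, model and leaving out each library.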

Additional observations from a re-analysis of the deposited data

Results flagged for a closer look

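Day 5 minus day 2, the mean over the 7520 members was negative in the treatments with vitamin C, at −0.0228 points with both supplements and −0.105 points with vitamin C alone, and positive in those without, at 0.580 points with L-proline and 0.280 points untreated. It is listed because the signs were opposite, and the difference in the mean over members was not tested. The signs were not particular to members. Over all 50167 tiles the difference was −0.779 points with both supplements and −1.28 with vitamin C, and 4.93 with L-proline and 4.18 untreated.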

How the results depend on the processing

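The mean matched differences kept their direction under the alternatives run, and the lowest and highest library medians of members stayed within 0.490% to 0.518% and 0.666% to 0.719%. Leaving out 1 library at a time, the mean difference ranged from −0.733 to −0.466 points for vitamin C, 0.167 to 0.333 for L-proline and 0.0507 to 0.279 for day. No paired analysis was possible because the labels carry no replicate numbers that could serve as a block; the matched pairs in the report are matched on treatment and day instead, which the fit already holds as terms.

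Counts moved more. The number of members at the high level in vitamin C day 5 (24 at 20%) was 49 with a threshold of 10% and 2 with 50%; in L-proline day 5 (99 at 20%) it was 301 and 22. When 20 reads were asked of each CpG and members were found again (4396 tiles), the counts were 4 and 24. With at least 31 CpGs (4325 tiles) they were 6 and 22. These alternatives kept 58.5% and 57.5% of the tiles, so the counts fell by a larger share than the tiles did. Vitamin C calls (52) ranged from 14 to 73 when 1 library was left out. Without the minimum difference they numbered 928, with libraries centred 2 and with the quasi-binomial model 8; the cause of the last was not tested. The tile at chr5:148242001-148243000 turned to −0.117 points with 20 reads. Among named tiles, 116 vitamin C values kept their side of the threshold, 29 were no longer past it, 3 came past it and 1 turned; 149 L-proline and 90 day values kept theirs. Depth limits what can be told apart at the floor, where a member has at least 328 reads in a library when summed over its CpGs.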

Other observations

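Gene families picked by symbol after the values were seen also sat at the floor. Ribosomal protein genes, which encode the protein part of the ribosome, matched 19 members with a median of 0.713% in L-proline day 5 and 0.487% in vitamin C day 5. Of these, 2 reached 5% in some library and 1 was lower with vitamin C at the limma adjusted p (background 34.3%). Zinc finger protein genes named Zfp, many of which encode DNA-binding repressors, matched 47 members with medians of 0.647% in L-proline day 5 and 0.457% in vitamin C day 5. Of these, 2 reached 5% in some library and 5 were lower with vitamin C at the limma adjusted p (background 34.3%, and 12.2% of all members).

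Outliers were spread over all autosomes. Chromosome 10 held 12 among 384 members (3.13%) and chromosome 3 held 2 among 346 (0.578%), the highest and the lowest share. No test was run on this spread.

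The 44 tiles of the X chromosome with 21 or more CpGs entered the fit over all tiles but are not members. Their median at day 5 and day 2 was 0.405% and 0.768% with both supplements, 0.417% and 0.816% with vitamin C, 0.781% and 0.697% with L-proline, and 0.587% and 0.687% untreated. The highest was vitamin C day 2. The median lay above the library's own lambda level in 7 libraries and below it in vitamin C day 5, where lambda stood at 0.504%. No test was run on these values.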
